A study of Mus musculus with 4 samples.

Results

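The genes described are the thermogenic genes of brown fat: the uncoupling proteins Ucp1, Ucp2 and Ucp3, and Cidea, Elovl3, Cox7a1, Cox8b, Adrb3 and Dio2. The members were chosen by gene symbol, as every probe set whose single symbol in the platform's probe table is one of these 9 names or an older alias. This gave 9 probe sets for 7 genes, of 12488 probe sets in all. Ucp1 and Cox8b had 2 probe sets each. No probe set carried the symbol Ucp2 or Adrb3 alone, so neither gene has a value here. RNA was pooled from aortas of adult male C57BL/6J mice, which were given vehicle or rosiglitazone for 21 days, the drug at 25 mg/kg/day. Rosiglitazone is a thiazolidinedione that activates PPARγ, a nuclear receptor. Each group has 2 arrays, rosiglitazone 1 and 2 and vehicle 3 and 4, and the labels do not tell whether these are separate pools of mice, so each p-value measures only the spread between arrays, and this may be technical. How many mice made up a pool is not stated in these sources, and no allele or further treatment is named.

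Brown adipocytes burn fatty acids to make heat. Noradrenaline acts on beta-adrenergic receptors, of which Adrb3 is the adipocyte form, and cyclic AMP then releases fatty acids from the lipid droplet and raises transcription of Ucp1, whose protein lets protons back into the mitochondrial matrix without making ATP. PPARγ is required for adipocyte formation and its agonists are known to induce thermogenic genes in cultured adipocytes. The fat around the mouse thoracic aorta is largely brown, so an aortic sample can carry these transcripts when some of that fat is left on the vessel. In pooled tissue of this kind, more cells of a type and more RNA per cell cannot be told apart.

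Upstream sequence is shown for the members with a match to one of the motifs searched that also have array values, Ucp1, Ucp3 and Dio2. In the values described below, Ucp1, on its brighter probe set, and Ucp3 had the same order over the 4 arrays and Dio2 was lower on both rosiglitazone arrays. RefSeq promoter windows (build GRCm38.p6, 250 bases before to 50 after the annotated start) were listed for 6 of the 9 members, the others with array values being Cox7a1 and Cox8b. The lines below give the 250 bases before the start, 5′ to 3′ on the gene's own strand, with motif matches in capitals. The stretch of Ucp1 is chr8:83290098-83290347 on the plus strand, that of Ucp3 is chr7:100472741-100472990 on the plus strand, and that of Dio2 is chr12:90739039-90739288 on the minus strand.
Ucp1: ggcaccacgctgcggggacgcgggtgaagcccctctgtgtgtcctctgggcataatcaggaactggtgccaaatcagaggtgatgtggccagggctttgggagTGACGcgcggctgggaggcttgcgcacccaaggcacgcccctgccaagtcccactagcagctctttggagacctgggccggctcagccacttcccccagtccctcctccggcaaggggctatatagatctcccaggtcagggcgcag
Ucp3: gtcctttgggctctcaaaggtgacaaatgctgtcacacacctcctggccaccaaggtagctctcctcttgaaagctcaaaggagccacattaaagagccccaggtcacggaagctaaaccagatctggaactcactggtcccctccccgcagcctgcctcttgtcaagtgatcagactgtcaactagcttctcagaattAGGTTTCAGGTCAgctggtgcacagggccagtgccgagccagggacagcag
Dio2: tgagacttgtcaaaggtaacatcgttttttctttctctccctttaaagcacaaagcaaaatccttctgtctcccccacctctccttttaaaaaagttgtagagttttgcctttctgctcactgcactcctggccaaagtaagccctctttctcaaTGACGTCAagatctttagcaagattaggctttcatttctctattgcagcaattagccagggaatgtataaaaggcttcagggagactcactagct

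The capitals in Ucp1 mark TGACG, the core of the cyclic AMP response element, 147 to 143 bases before the start. In Ucp3 they mark a match to the PPAR response element, searched as a direct repeat of AGGTCA with 1 base between and up to 2 mismatches over the 12 letters. It lies 51 to 39 bases before the start and has 2 mismatches. The Ucp3 window also held the core once after the start, outside the bases shown. In Dio2 they mark a full cyclic AMP response element, TGACGTCA, 95 to 88 bases before the start. This palindrome holds the core on both strands. Both strands were searched, as they were for TCAAGGTCA, an element bound by estrogen-related receptors, which none (0) of the 6 windows held. Of all 32851 windows, 3.86% held the PPAR response element in this loose form, 1.79% the full cyclic AMP response element, 20.8% its core and 0.423% the estrogen-related receptor element. The windows of Cox7a1 and Cox8b held none of these letters. A match is a description of the letters and not a measured site. Sequence outside these windows was not searched, so a gene without a match here may hold one elsewhere.

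Intensities of Ucp1, Ucp3, Cidea and Cox8b were higher on both rosiglitazone arrays than on either vehicle array, by 1.20-fold to 1.98-fold, and Dio2 had lower values on both. No member probe set (0 of 8 tested) passed an adjusted p of 0.05 in limma, where 0.364% of the 7134 probe sets tested passed, 0.0421% higher and 0.322% lower. Intensities under a floor of 148, the 20th percentile, were set to it, and probe sets with a mean under the 40th percentile, 414, were not tested. At an unadjusted p under 0.05 there were 2, the brighter Ucp1 probe set and one of Cox8b, where 10.9% of the probe sets tested lay under it. Both were higher with rosiglitazone, the direction of 5.12% of the probe sets tested at that p. Of the 8 tested, 6 had higher values on both rosiglitazone arrays, where 19.0% of probe sets did, and 1 had lower values on both, where 21.8% did. Groups without overlap in either direction thus made up 7 of 8, against 40.8% of all tested. A log2 fold change above 0 was found for 7 of 8, against 48.1% of all tested. These 8 are not independent, since they share 4 arrays and 4 of them measure Ucp1 or Cox8b. Intensity here is hybridisation signal on a linear scale, and every fold is a ratio of geometric means between the groups of 1 probe set.

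**Figure D1:**
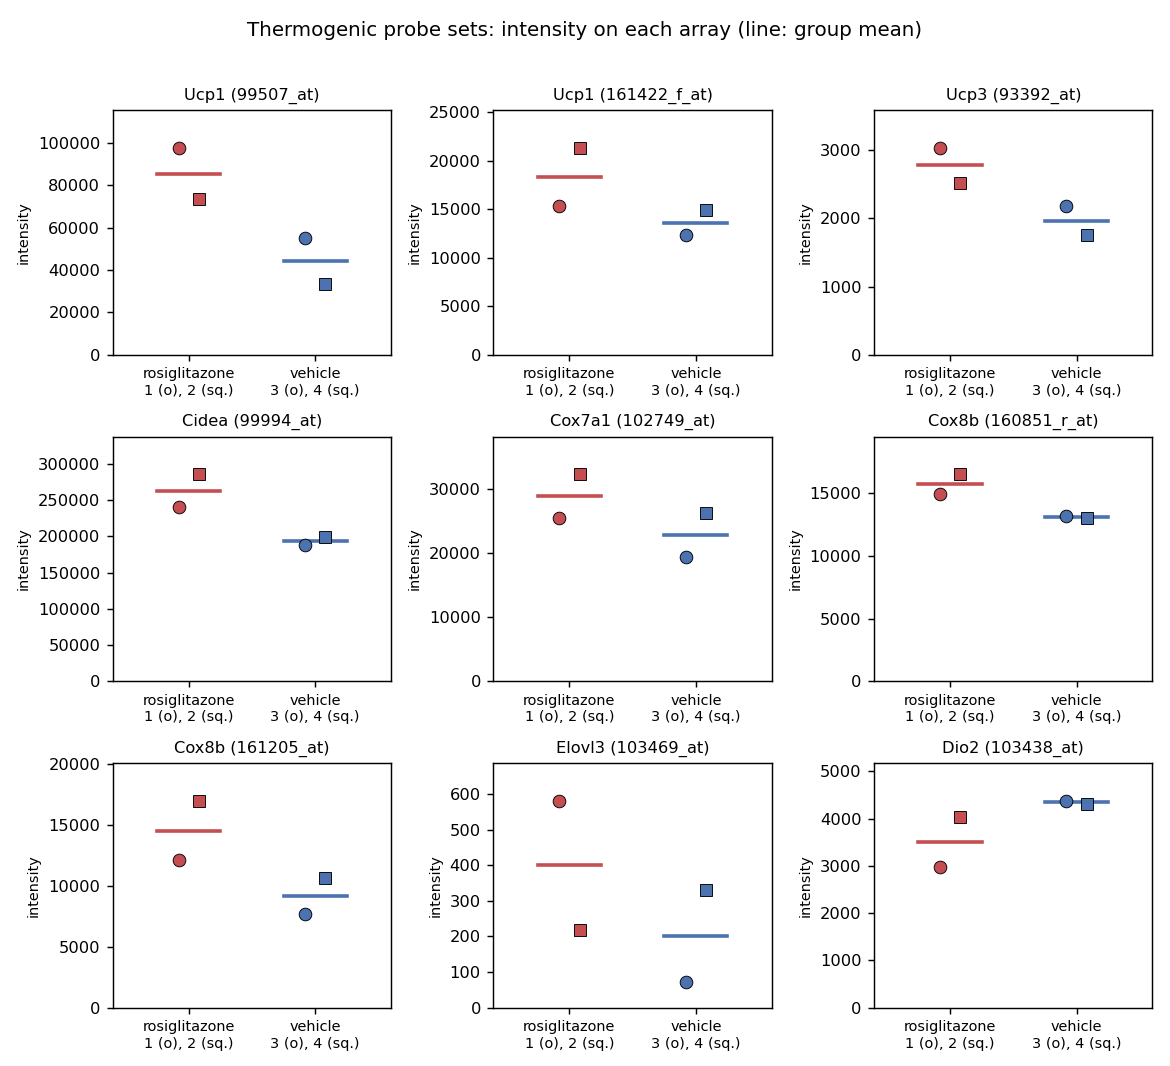
Intensity of each of the 9 probe sets on the 4 arrays, on a linear axis from 0, with a line at each group's mean. Both rosiglitazone points lie above both vehicle points for the Ucp1, Ucp3, Cidea and Cox8b probe sets, the groups overlap for Cox7a1 and Elovl3, and both rosiglitazone points of Dio2 lie below the vehicle points.

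Ucp1, the proton channel that defines brown fat, was higher with rosiglitazone on both of its probe sets. The brighter one (99507_at) is described first. Its intensities were 97796 and 73418 on rosiglitazone 1 and 2, against 54981 and 33472 on vehicle 3 and 4. The groups did not overlap, and the lower rosiglitazone array stood 1.34-fold above the higher vehicle array. In log2 units the rosiglitazone arrays averaged 16.37 ± 0.29 and the vehicle arrays 15.39 ± 0.51 (SD, n = 2 arrays a group). The log2 fold change was 0.98 with a standard error of 0.28 and a 95% interval of 0.36 to 1.60 (limma, unadjusted p = 0.00588, adjusted p = 0.201). This is a 1.98-fold difference, with limits of 1.28-fold and 3.04-fold, that did not pass the adjustment. Leaving out 1 array moved the fold change between 0.62, without vehicle 4 (unadjusted p = 0.115 in limma), and 1.34, without vehicle 3.

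The second Ucp1 probe set (161422_f_at) gave a smaller difference. The suffix f is Affymetrix's mark for probes that can match other members of a sequence family. Its intensities were 15356 and 21365 on rosiglitazone 1 and 2, against 12313 and 14922 on vehicle 3 and 4. The groups again did not overlap, though by a ratio of only 1.03 between the nearest arrays. The log2 fold change was 0.42 (standard error 0.23, adjusted p = 0.568 in limma), a 1.34-fold difference with limits of 0.93-fold and 1.92-fold. It was 0.18 without rosiglitazone 2, 0.28 without vehicle 3 and 0.66 without rosiglitazone 1. Within the groups the 2 probe sets ordered the arrays in opposite ways. The brighter one was highest on rosiglitazone 1 and lowest on vehicle 4, whereas the dimmer one was highest on rosiglitazone 2 and lowest on vehicle 3. The log2 fold changes of the 2 probe sets differed by 0.56, while the within-array difference between them varied with an SD of 0.63 between the rosiglitazone arrays and 0.70 between the vehicle arrays. The 2 estimates for Ucp1 thus differed by less than the spread between arrays.

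Ucp3, a relative of Ucp1 found in skeletal muscle, heart and brown fat, was higher with rosiglitazone by a smaller fold. Its intensities were 3038 and 2520 on rosiglitazone 1 and 2, against 2179 and 1754 on vehicle 3 and 4. All 4 arrays stood in the same order as for the brighter Ucp1 probe set, with no overlap between the groups. The share of all probe sets with this order was not computed. The log2 fold change was 0.50 (standard error 0.29, adjusted p = 0.585 in limma). The interval of the fold, 0.89 to 2.24, includes no difference.

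Cidea, a lipid droplet protein that marks brown and beige adipocytes in the mouse, had intensities of 240828 and 286124 on rosiglitazone 1 and 2, against 188712 and 199365 on vehicle 3 and 4. Both rosiglitazone arrays were higher, and the vehicle arrays were close to each other, with an SD of 0.056 on the log2 scale. For Cidea the log2 fold change was 0.44 (standard error 0.23, adjusted p = 0.553 in limma), or 1.35-fold with limits of 0.94-fold and 1.95-fold. Leaving out 1 array gave 0.31 to 0.56. The other members of the family on the array were Cidec, which builds large lipid droplets in adipocytes, and Cideb, known from liver. Cidec had 22030 and 32019 on rosiglitazone 1 and 2, against 16921 and 16051 on vehicle 3 and 4, a log2 fold change of 0.69 (adjusted p = 0.307 in limma). Its groups did not overlap, and rosiglitazone 2 was its highest array, as it was for Cidea. Cideb had a mean under the filter and was not tested. Its intensities were 829 and 782 on rosiglitazone 1 and 2, against 207 and 116 on vehicle 3 and 4, the last of these under the floor of 148. Its groups did not overlap, and only the vehicle values lay under the filter intensity of 414.

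Cox7a1 and Cox8b encode the forms of cytochrome c oxidase subunits that are found in heart, skeletal muscle and brown fat. Cox7a1 had intensities of 25423 and 32286 on rosiglitazone 1 and 2, against 19400 and 26257 on vehicle 3 and 4. Its groups overlapped, since vehicle 4 lay above rosiglitazone 1. Its log2 fold change was 0.34 (standard error 0.23, adjusted p = 0.636 in limma), and it was 0.13 without vehicle 3 and 0.56 without vehicle 4.

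Cox8b was measured by 2 probe sets. On 160851_r_at the intensities were 14937 and 16524 on rosiglitazone 1 and 2, against 13168 and 13057 on vehicle 3 and 4. The groups did not overlap, and the log2 fold change was 0.26 (standard error 0.20, adjusted p = 0.688 in limma), or 1.20-fold. On 161205_at the intensities were 12083 and 16992 on rosiglitazone 1 and 2, against 7653 and 10667 on vehicle 3 and 4. The log2 fold change there was 0.67 with a standard error of 0.25 (limma, unadjusted p = 0.0276, adjusted p = 0.382), or 1.59-fold. Without rosiglitazone 2 it was 0.42 and without vehicle 3 it was 0.43, with unadjusted p of 0.154 and 0.238 in limma. Between arrays of a group the second probe set varied more, with SDs of 0.35 and 0.34 against 0.10 and 0.0086 for the first. The 2 fold changes differed by 0.40, with SDs of the within-array difference of 0.24 and 0.35 between arrays of a group.

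Elovl3, a fatty acid elongase induced by cold in brown fat, was the only member with a probe set that was not kept by the filter on dim probe sets. Its intensities were 581 and 218 on rosiglitazone 1 and 2, against 72 and 329 on vehicle 3 and 4. The groups overlapped, and vehicle 3 lay under the floor of 148. The log2 difference was 0.69 with that array at the floor and 1.21 with no floor, and it was -0.018 without rosiglitazone 1. The arrays of a group lay 1.41 apart on the log2 scale with rosiglitazone and, with 1 array at the floor, 1.15 with vehicle, so no direction can be read for this gene. The other elongases with a probe set were Elovl1, Elovl2, Elovl5 and Elovl6. Elovl6, which extends palmitate in lipogenesis, had 7286 and 5693 on rosiglitazone 1 and 2, against 11338 and 14994 on vehicle 3 and 4 (log2 fold change -1.02, adjusted p = 0.116 in limma). Elovl1 had a log2 fold change of -0.57 and Elovl5 one of 0.12, with adjusted p of 0.58 and 0.888 in limma, and Elovl2 was not tested.

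Dio2 was the only member with lower values on both rosiglitazone arrays. It encodes the deiodinase that makes active thyroid hormone inside brown adipocytes and is itself induced by cyclic AMP. Its intensities were 2979 and 4037 on rosiglitazone 1 and 2, against 4378 and 4313 on vehicle 3 and 4. The vehicle arrays lay within an SD of 0.015 on the log2 scale, against 0.31 for the rosiglitazone arrays. The log2 fold change was -0.33 (standard error 0.26, adjusted p = 0.706 in limma), and it was -0.11 without rosiglitazone 1 and -0.54 without rosiglitazone 2. Among the related genes, the log2 fold change of the thyroid hormone receptor Thra was 0.18 on its brighter probe set (adjusted p = 0.848 in limma) and -1.40 on another (adjusted p = 0.568). Thrb and the deiodinase Dio1 were too dim to be tested.

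**Figure D2:**
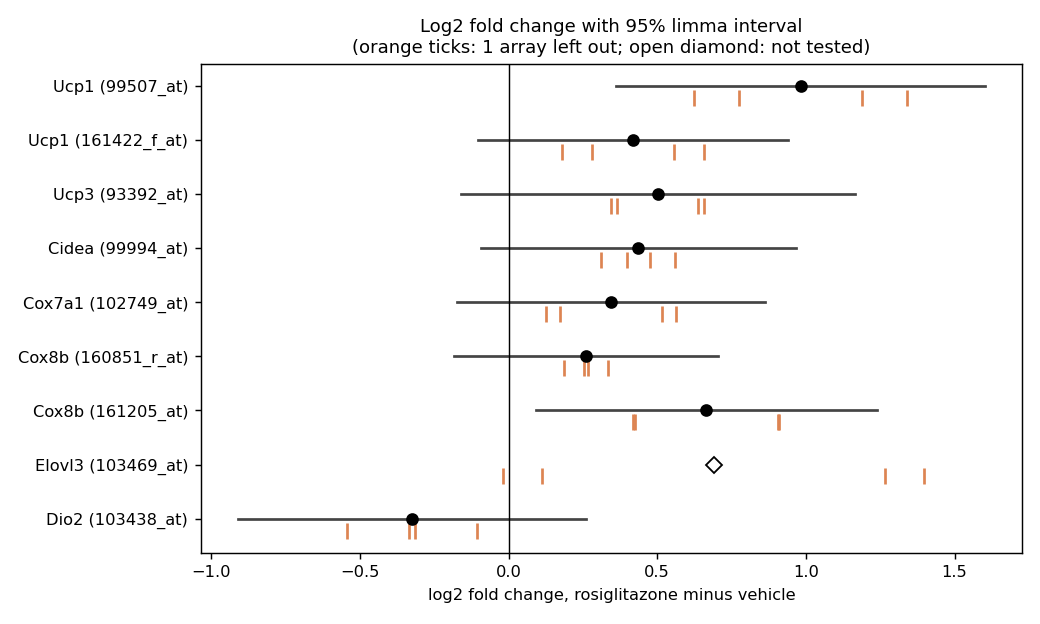
Log2 fold change of each member probe set, rosiglitazone minus vehicle, with its 95% interval from limma, and the values with 1 array left out as orange ticks. The interval lies above 0 for the brighter Ucp1 probe set (0.36 to 1.60) and for Cox8b on 161205_at (0.09 to 1.24), and Elovl3, not tested, is shown without one.

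The arrays within a group did not order the members alike. The brighter Ucp1 probe set, Ucp3 and Elovl3 were highest on rosiglitazone 1. The second Ucp1 probe set, Cidea, Cox7a1 and both Cox8b probe sets were highest on rosiglitazone 2. Relative to each probe set's own mean over the 4 arrays, rosiglitazone 1 stood at 0.70 for the brighter Ucp1 probe set, 0.39 for Ucp3 and 0.094 for Cidea on the log2 scale. On rosiglitazone 2 the same quantities were 0.28, 0.12 and 0.34. RNA integrity can be read from the ratio of 3' to 5' signal, which for Gapdh was 8.79 and 10.8 on rosiglitazone 1 and 2 and 11.1 on both vehicle arrays, by a small margin highest on vehicle 4. Its order over the 4 arrays was the reverse of that of the brighter Ucp1 probe set and Ucp3. The same ratio of Actb was 7.74, 9.62, 8.88 and 11.9 on rosiglitazone 1, rosiglitazone 2, vehicle 3 and vehicle 4. Both ratios were thus at least 7.74 on every array, so the signal of these genes was much lower at the 5' end on all 4. The part of RNA integrity in these results was not tested.

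**Figure D3:**
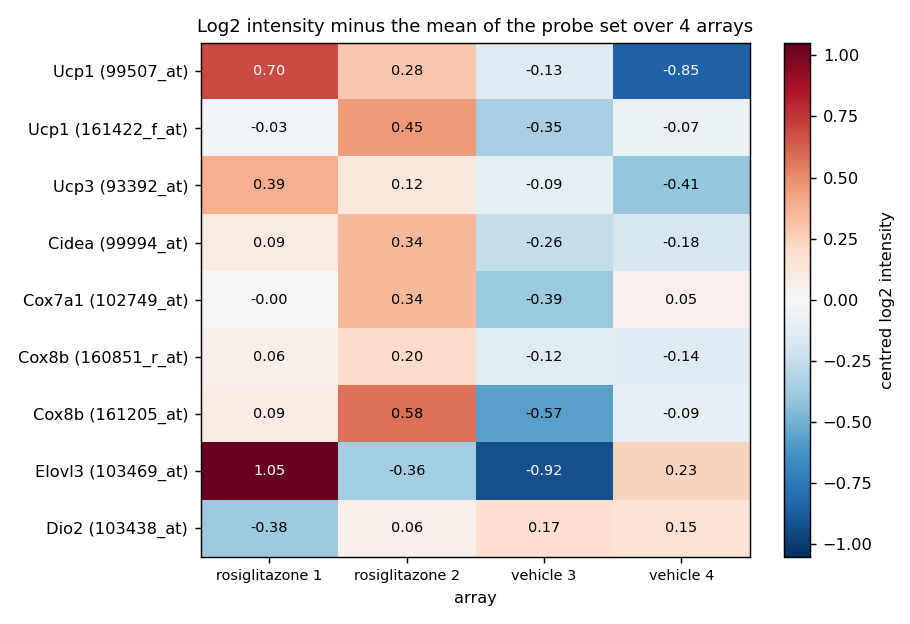
Log2 intensity of each member probe set on each array minus its own mean over the 4 arrays. The brighter Ucp1 probe set and Ucp3 are highest on rosiglitazone 1 and lowest on vehicle 4, whereas the second Ucp1 probe set, Cidea, Cox7a1 and both Cox8b probe sets peak on rosiglitazone 2.

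The genes whose pattern over the 4 arrays was most like that of the brighter Ucp1 probe set were Htr3a, Rmdn3, Kank3, Larp1 and Psme4. Likeness was the root mean square difference between log2 intensities centred on each probe set's own mean, which was 0.087 for Htr3a and 0.122 for Psme4 among 5460 genes compared. The difference was 0.28 for Ucp3, with 166 genes nearer to Ucp1, and 0.46 for Cidea, with 890 nearer. For the second probe set of Ucp1 it was 0.55, with 1643 genes nearer. With only 4 arrays such a ranking is a description of these arrays.

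Over the 7 member genes with a probe set, 6 had a log2 fold change above 0 on their brightest probe set, with a median of 0.44. The 6 that passed the filter had 5 above 0 and a median of 0.39. Over all 5466 genes tested, 48.2% lay above 0 and the median was -0.02. The median of the 7 was 0.27 without vehicle 3 and 0.48 without vehicle 4.

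Among genes that supply fuel to the brown adipocyte, most lay above 0 and 1 passed the test. Of 32 genes of fuel supply and fatty acid oxidation that passed the filter, 26 lay above 0, with a median log2 fold change of 0.33, and 1 was called higher and 0 lower. An unadjusted p under 0.05 in limma was found for 12, where 10.9% of all probe sets tested had one. Of the 12, only Acsl5 was lower with rosiglitazone (log2 fold change -0.65). The others were higher, the direction of 5.12% of all probe sets tested at that p. The called gene was Fabp3, the fatty acid binding protein of heart and brown fat, with 13425 and 14910 on rosiglitazone 1 and 2, against 5401 and 4350 on vehicle 3 and 4. Its log2 fold change was 1.55 (standard error 0.22, adjusted p = 0.024 in limma), and its groups lay far apart. The call was lost without vehicle 3 (1.70, adjusted p = 0.527) and without vehicle 4 (1.39, adjusted p = 0.672), where 1 probe set of all passed in each case, and in 3 further settings given with the limits. The next genes by p were not past the threshold. Lipe, the hormone-sensitive lipase that cyclic AMP signalling switches on, had 30011 and 21584 on rosiglitazone 1 and 2, against 12695 and 11031 on vehicle 3 and 4 (log2 fold change 1.10, adjusted p = 0.0799 in limma). Without rosiglitazone 2 it was past the threshold (1.34, adjusted p = 0.0294 in limma). Angptl4, an inhibitor of lipoprotein lipase, had a log2 fold change of 1.13, and Plin4, a lipid droplet coat protein, one of 0.95 (adjusted p = 0.105 and 0.144 in limma). These 4 genes were named for the smallest p of the list, so their fold changes do not stand for it. The log2 fold change was 0.07 for Lpl, the lipoprotein lipase itself, and -0.19 for Fabp4, the adipocyte fatty acid binding protein.

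Cytochrome c oxidase subunits other than Cox7a1 and Cox8b went both ways, from Cox6b1 at -0.30 and Cox6c at -0.11 to Cox7a2 at 0.44 on the log2 scale. Of 12 subunit genes that passed the filter, members included, 10 lay above 0, with a median of 0.28 and a range from -0.30 to 0.44, and 0 passed the test, with 1 at an unadjusted p under 0.05 in limma. Cox7a2, the widely expressed counterpart of Cox7a1, had 43600 and 44352 on rosiglitazone 1 and 2, against 31089 and 33664 on vehicle 3 and 4, a log2 fold change of 0.44 (adjusted p = 0.452 in limma) against 0.34 for Cox7a1. Cox6a2, the muscle form, had 0.28 and Cox6a1, its widely expressed counterpart, 0.26. Cox8a, the counterpart of Cox8b, was too dim to be tested. The differences between these tissue-restricted and widely expressed forms, which were not tested, are smaller than the standard error of each value, 0.19 to 0.26.

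Mitochondrial carriers are the protein family that includes the uncoupling proteins. Of 9 other carriers tested, 7 lay above 0, with a median of 0.11, a range from -0.48 for Slc25a3 to 0.51, and 0 past the test. Slc25a20, which brings acylcarnitine into mitochondria for oxidation, had the smallest p, with a log2 fold change of 0.51 (adjusted p = 0.413 in limma). It was the only 1 of the 9 under an unadjusted p of 0.05. The ADP/ATP carrier Slc25a4, abundant in muscle and brown fat, had 0.11 and its relative Slc25a5 had 0.07. Slc25a14, a brain relative of the uncoupling proteins, was too dim to be tested.

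Genes that control thermogenesis were spread over both directions. Of 35 that passed the filter, 17 lay above 0 and 18 below, with a median of -0.03, and 0 passed the test, with 5 at an unadjusted p under 0.05 in limma. Ppara, a fatty acid receptor that is abundant in brown fat, had 15773 and 22435 on rosiglitazone 1 and 2, against 10019 and 10141 on vehicle 3 and 4 (log2 fold change 0.90, adjusted p = 0.154 in limma). Gnas, which encodes the G protein that couples beta-adrenergic receptors to adenylyl cyclase, had 255777 and 128079 on rosiglitazone 1 and 2, against 103013 and 76692 on vehicle 3 and 4. The arrays of Gnas stood in the order of the brighter Ucp1 probe set and Ucp3, with a log2 fold change of 1.03 (adjusted p = 0.282 in limma), 0.53 without rosiglitazone 1 and 1.52 without rosiglitazone 2, the last past the threshold (adjusted p = 0.0294). A further Gnas probe set, far dimmer, had 0.05. Cebpa, a transcription factor of adipocyte formation, had 0.52 and the retinoid receptor Rxrb had -0.81, with adjusted p of 0.384 and 0.386 in limma. Rxrb was at -0.36 without rosiglitazone 2 and -1.25 without rosiglitazone 1. Ppargc1a, the coactivator that cold induces in brown fat, was not kept by the filter, at 579 and 368 on rosiglitazone 1 and 2, against 208 and 234 on vehicle 3 and 4. Its groups did not overlap, with a log2 difference of 1.07 that was not tested. Of the adrenergic receptors, Adra2c and Adra1b had a probe set with 1 symbol, and both had overlapping groups.

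Most markers of adipocytes in general also lay above 0. Of 14 pan-adipocyte genes tested, 10 lay above 0, with a median of 0.45 and 0 past the test, and none of the 14 with a probe set was under the floor on all arrays. Their summed intensity was 832496 and 871112 on rosiglitazone 1 and 2, against 761181 and 820748 on vehicle 3 and 4, with no overlap. Adipoq, the adipocyte hormone adiponectin, had 165554 and 195068 on rosiglitazone 1 and 2, against 125080 and 136822 on vehicle 3 and 4, a log2 fold change of 0.46 (adjusted p = 0.51 in limma). With quantile normalization the log2 fold change of Adipoq was 0.21 and that of Cidea 0.37. The mean of the 14 genes was higher with rosiglitazone by 0.36 on the log2 scale, with an SD between arrays of 0.043 with rosiglitazone and 0.047 with vehicle. The single genes ranged widely around it, with log2 fold changes from -0.59 to 1.49. Whether the mean follows the amount of fat was not tested. Set against that mean within each array, a measure added after the values were seen, the difference was 0.62 for the brighter Ucp1 probe set, still with no overlap between the groups (SD 0.34 and 0.46). It was 0.061 for the second Ucp1 probe set, 0.14 for Ucp3, 0.079 for Cidea, -0.013 for Cox7a1 and 0.33 for Elovl3, all with overlapping groups. For Dio2 it was -0.68, with no overlap (SD 0.27 and 0.031). For Cox8b it was -0.097, with no overlap, on 160851_r_at and 0.31, with overlap, on 161205_at. The share of all probe sets without overlap on this measure was not computed.

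Other brown adipocyte markers, listed without the members, had 6 of 7 tested genes above 0 and a median of 0.76, with Fabp3 the 1 past the test. Their summed intensity was 46128 and 55484 on rosiglitazone 1 and 2, against 29684 and 30044 on vehicle 3 and 4, and Bmp8b was under the floor on all 4 arrays. Most of the difference between these sums came from Fabp3 and Ppara, both also counted in lists described above. White adipocyte markers had 5 of 13 above 0 and a median of -0.10, and 1 gene, Wfdc21, was called lower. The size of its log2 fold change, -4.25, depended on the floor. It was -2.76 with the floor at the 40th percentile and -6.42 with no floor, where Wfdc21 was not kept by the filter. The sums of the white adipocyte markers were 316565 and 335121 on rosiglitazone 1 and 2, against 277385 and 282825 on vehicle 3 and 4, and Inhbb was under the floor on all 4 arrays. Most of each sum came from Adipoq, also counted with the pan-adipocyte genes, and Car3, which had a log2 fold change of -0.01. Muscle can also express Ucp3, Cox7a1 and Cox8b. Of the skeletal muscle markers 9 of 16 lay above 0 (median 0.01, 0 called), their sums were 32042 and 30499 on rosiglitazone 1 and 2, against 31813 and 29051 on vehicle 3 and 4, and Myh2 was under the floor on all 4 arrays. Cardiac muscle markers had 6 of 14 above 0 (median -0.13, 0 called), with sums of 50266 and 54759 against 52530 and 56775.

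**Figure D4:**
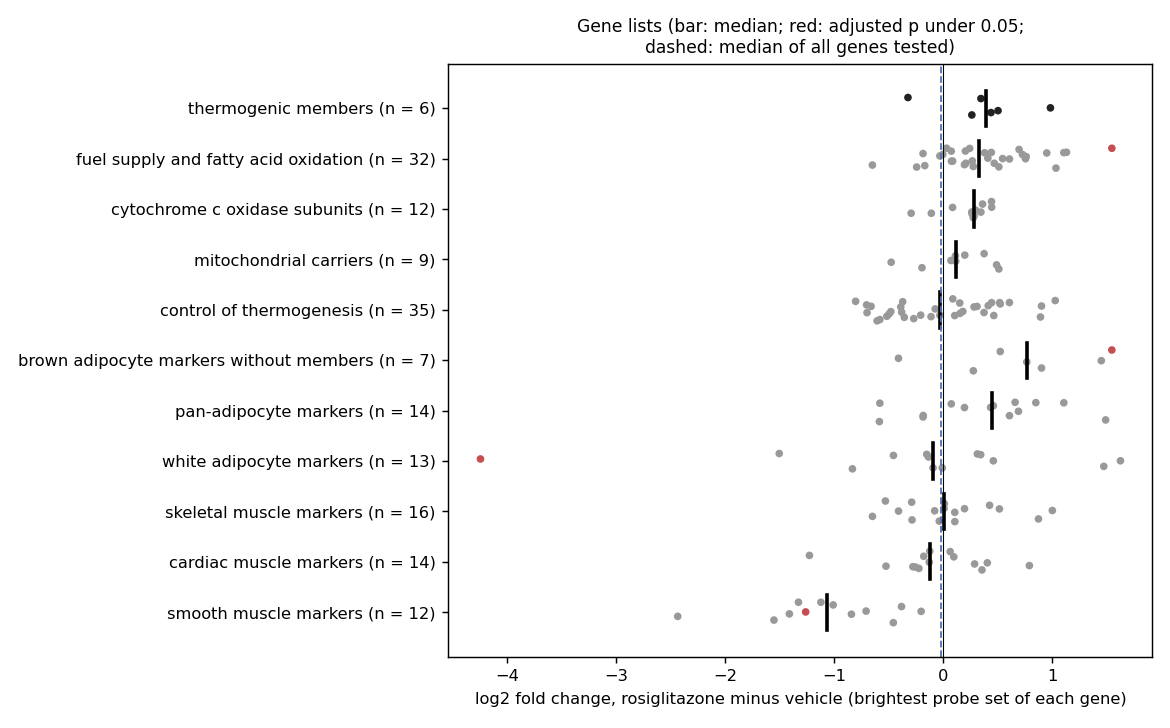
Log2 fold change of each gene that passed the filter, on its brightest probe set, for the thermogenic members and 10 other lists, with a bar at each median and a dashed line at the median of all genes tested (-0.02). The medians are 0.39 for the members, 0.45 for pan-adipocyte markers, 0.76 for other brown adipocyte markers and -1.07 for smooth muscle markers.

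Among markers of the vessel wall and of blood cells, the lists differed in how many lay below 0. All 12 smooth muscle markers tested, the defining genes of the aortic wall, lay below 0, with a median of -1.07 and 1 called, Tagln. None of the 13 smooth muscle markers with a probe set was under the floor on all arrays. Their sums were 70494 and 75526 on rosiglitazone 1 and 2, against 141577 and 165002 on vehicle 3 and 4. Of 13 macrophage markers 12 lay below 0 (median -0.86, with Cd14 called) and of 11 neutrophil markers 10 did (median -0.69, with S100a8 and S100a9 called). On a probe set dimmer than the one counted, the neutrophil markers Lcn2 and Il1r2 were also called lower. Their log2 fold changes there were -4.92 and -3.01 (adjusted p = 0.00214 and 0.0209 in limma). On the probe sets counted they were -0.69 and -2.07. Both rosiglitazone values of the dimmer Lcn2 probe set lay under the floor. Of 12 endothelial markers 9 lay below 0 (median -0.25, 0 called), and of 8 erythrocyte markers 5 did (median -0.76, 0 called). The calls of Wfdc21, Tagln, Cd14 and S100a8 were lost without vehicle 3 (adjusted p 0.0582 to 0.545 in limma) and without vehicle 4 (0.0619 to 0.672). Tagln also lost its call with no floor (0.0583), with arrays centred on their medians (0.0967) and without the intensity trend (0.429), and without that trend so did Cd14 (0.107) and S100a8 (0.0905). These calls and that of S100a9 were also lost with no filter and with the floor at the 40th percentile. The arrays share a common scaled mean, and the median of all log2 fold changes was -0.02, so the values are relative to all other transcripts. The part of the tissue's make-up in the differences of the members was not tested.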

How the data were processed

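RNA from 4 samples was measured on Affymetrix MG-U74Av2 arrays, the platform of the probe table. The deposited values are linear intensity values, whole numbers from 2 to 616423, and the software and background correction behind them are not stated in these sources. The arrays had trimmed means of 1501 and medians within 0.13 on the log2 scale, so no further scaling was applied. Arrays have no depth, and their number limits the precision. Intensities under 148, the 20th percentile, were set to 148 before log2 was taken. After 66 control probe sets were left out, the 7134 with a mean log2 intensity at or above the 40th percentile (an intensity of 414) were tested in R 4.3.3 with limma 3.58.1 (lmFit, eBayes with intensity trend, two-sided, 2 residual degrees of freedom), with Benjamini-Hochberg adjustment over all 7134. The procedure was tried on simulated data with independent noise on each array. The planted changes were larger than the log2 fold change of any member probe set tested, so the simulation does not bear on changes of that size. An exact permutation test of 2 against 2 arrays cannot give a p under 0.333 and was not used. Lists are described by counts and medians over the brightest probe set of each gene.

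Gene symbols were taken from the platform's probe table, in which 10833 probe sets had 1 symbol, 396 several and 1193 none listed. Identifiers of 10817 were found in the GRCm38.p6 gene table, and 0 symbols changed. Members and lists were chosen with earlier results of these data known. Named were all members, the up to 4 genes of each pathway list with the smallest p, listed genes past the threshold, family members, list sums and the 5 genes most like Ucp1. Ppargc1a, Adipoq, Lpl and Fabp4 were named after their values were seen. The alternatives were the floor, the filter, scaling between arrays, the intensity trend and leaving out each array.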

Additional observations from a re-analysis of the deposited data

How the results depend on the processing

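No member probe set (0) passed the threshold in any of the 11 alternatives in limma, and each kept the sign of its difference except Elovl3, which ranged from -0.018 (without rosiglitazone replicate 1) to 1.40 with 1 array left out. The 7 member genes had 6 above 0 in every alternative that kept all arrays, and 5 or 6 with 1 array left out. Their median log2 fold change, 0.44, was 0.34 with the floor at the 40th percentile, 0.52 with each array centred on its median and 0.37 with quantile normalization, and it ranged from 0.27 to 0.48 with 1 array left out. The brighter Ucp1 probe set ranged from 0.82 to 1.06 with all arrays kept and from 0.62 to 1.34 with 1 left out, with adjusted p from 0.09 to 0.834 over all of them. The number of probe sets called, 26, was 17 with no floor, 0 with the floor at the 40th percentile, 0 with no filter, 17 with each array centred on its median and 7 without the intensity trend. With 1 array left out it ranged from 1 to 78. At an unadjusted p under 0.05 the counts with that floor and with no filter were 933 and 1202 in limma. These settings test all 12422 probe sets, and the cause of the other changes was not tested. Slc25a25, a carrier with a log2 fold change of 0.49, ranged from -0.10 (without rosiglitazone replicate 2) to 1.08. Fabp3 also lost its call with that floor (adjusted p = 0.338 in limma), with no filter (0.284) and without the intensity trend (0.335). With 1 array left out, the lone array of a group is assumed to vary like the other group. No paired analysis was possible because the replicate numbers 1 and 2 of one group and 3 and 4 of the other are not shared. With 2 arrays a group the 95% intervals of Ucp3, Cidea, Cox7a1 and Dio2 include 0. So do those of the second Ucp1 probe set (-0.10 to 0.94) and of Cox8b on 160851_r_at (-0.18 to 0.70).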
